A study of Mus musculus with 79 samples.

Results

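Frontal cortex of APP/PS1 mice that had received a control antisense oligonucleotide (control ASO) was compared with frontal cortex of APP/PS1 mice that had received phosphate-buffered saline (PBS). The comparison used every cortical array of those labels, 11 with control ASO and 8 with PBS, of 40 cortical arrays and 79 arrays in all. All 14581 probes with a detection p under 0.05 on at least 8 cortical arrays were compared, of 25697 on the array. APP/PS1 is a transgenic mouse line that forms amyloid plaques, and Thy1 promoter cassettes drive both of its transgenes in neurons. All animals were females carrying an osmotic pump with a cannula in the right lateral ventricle and were housed singly after surgery. The oligonucleotide, which has no intended target in the mouse, was infused for 14 days at a daily dose of 75 µg in 6 µL, starting when the mice were 18 weeks old. The PBS group received the vehicle in its place. Tissue of the left hemisphere was collected at about 20.5 weeks, 17 days after surgery, except in PBS replicate 7, which was collected after 14 days, and in CD33 ASO replicates 3 and 10 (13 days) and 9 (16 days). The other cortical groups entered the same fit: APP/PS1 mice given an oligonucleotide against Cd33 (CD33 ASO, 10 arrays) and wild-type littermates given PBS (WT, 11 arrays). Each array is 1 animal, so replicates are separate animals. The labels give 10 animals in each group.

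Antisense oligonucleotides are short synthetic strands that pair with a chosen RNA, and a control oligonucleotide carries the chemistry without the intended pairing. Oligonucleotides infused into cerebrospinal fluid are taken up by endocytosis in many brain cells, and phagocytes such as microglia and macrophages collect them in lysosomes. The gene groups described below include phagocyte genes, targets of the glucocorticoid receptor (a nuclear receptor that binds DNA when adrenal steroids are present), genes of oligodendrocytes, which make myelin, and genes of the circadian clock.

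Between 13105 and 13679 probes were detected on a control ASO array and between 13157 and 13766 on a PBS array, with median signals of 16.7 to 26.6 and 15.4 to 26.0 intensity units. The cortical arrays lay on 5 slides, each of which held both groups, and 3200 of the 14581 probes differed between slides within groups. Surgery was done in 3 sessions, between which 0 probes differed. Thy1, a surface protein of neurons, lay between 14.59 and 14.80 (log2 signal) on the PBS arrays and between 13.85 and 14.14 on the WT arrays. Control ASO replicates 5 and 8 had Thy1 values of 13.99 and 13.96, within the WT range, so these arrays went against their APP/PS1 label. Cst7, a cystatin of microglia around plaques, was also lowest on these arrays, at 5.12 and 4.83, against 8.81 to 9.73 on the other control ASO arrays. Counts are therefore given with these arrays and without them, where the CD33 ASO arrays with Thy1 in the WT range were left out too. Mef2c and Crym, both abundant in cortical neurons, were detected on all arrays of both groups.

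Cd33, the target of the other oligonucleotide, was not called. It lay between 6.48 and 7.25 (median 6.88) with control ASO and between 6.28 and 6.94 (median 6.73) with PBS. The difference was 0.19 on the log2 scale and the exact two-sided permutation p was 0.0883 over 75582 splits of the arrays. Without control ASO replicates 5 and 8 the difference was 0.27 and the exact permutation p 0.00666. App, the mouse counterpart of a transgene, differed by -0.0971 (SE 0.0601, adjusted p = 0.658).

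Few transcripts passed the threshold for a call, and the largest differences were rises. A probe was called when its Benjamini-Hochberg adjusted p over all probes (limma) was under 0.05. Of the 14581 probes 0.926% were called, 53 higher (0.363%) and 82 lower (0.562%) with control ASO. They covered 43 named genes that were higher and 68 that were lower, and 11 called probes had no symbol. At an unadjusted limma p under 0.05 there were 1478 probes. In simulated data the fit recovered 24% of true differences of 0.25 and 66% of those of 0.5, so small differences can be missed. The simulated noise was independent between arrays, with no slide effect and no arrays against their label, so the rates need not hold for these data. Centring each array on its median in place of quantile normalization gave 34 higher and 23 lower, so the share of higher calls moved from 39.3% to 59.6%. Without control ASO replicates 5 and 8 (0.974% called), 77 were higher (0.528%) and 65 lower (0.446%), and 106 of the probes called over all arrays were among them. With slide as a block (0.871% called), 56 were higher (0.384%) and 71 lower (0.487%), and again 106 were among them. Without PBS replicate 7, 34 were higher and 64 lower. Of 48 called probes of named genes, 12 lost the call under 9 to 21 of 36 alternatives, which were Dhcr7, Mvd, Hmgcs1, Cirbp, Mag, Dbp, Atp6v0e, Ms4a6d, Angptl4, Nfkbia, Spink8 and Ly6c1. The called rises had a median of 0.56 on the log2 scale and a maximum of 2.30, and 9 of them were over 1. The called falls had a median of -0.38 and a minimum of -1.48, and 1 of them exceeded 1 in size. Every control ASO array lay above every PBS array for 6 probes (0.0411%) and below every PBS array for 7 (0.048%).

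Some targets of the glucocorticoid receptor rose. Of 16 measured members of this list 7 were called higher and 0 lower, against 0.363% and 0.562% of all probes, and the median difference of the list was 0.34 against -0.000773 over all probes. Without control ASO replicates 5 and 8, 9 members were called higher, and with slide as a block 5. This list and those below were written with earlier results of these data known or after values were seen. Their counts are therefore descriptions. Plin4, a perilipin that coats lipid droplets, had the largest rise of the comparison. Its log2 signal was between 6.86 and 9.77 (median 8.80) on the control ASO arrays and between 5.46 and 7.20 (median 6.38) on the PBS arrays. Replicates 7 and 11 were the low control ASO arrays, at 6.86 and 7.29, and the first of them was the single array within the PBS range. Plin4 rose by 2.30 (SE 0.338, adjusted p = 4.05e-05), a factor of 4.93. On the WT arrays it lay between 5.48 and 7.59.

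Sgk1, a kinase induced by serum and glucocorticoids, lay between 11.95 and 12.90 (median 12.33) with control ASO and between 11.53 and 12.20 (median 11.70) with PBS. Replicates 4 and 10 were its highest control ASO arrays, 7 arrays lay above all PBS arrays, and the rise was 0.63 (SE 0.115, adjusted p = 0.00107). Fkbp5, a co-chaperone of the glucocorticoid receptor, rose by 0.56 (SE 0.127, adjusted p = 0.0138), with 9 of 11 control ASO arrays above the highest PBS array. Sult1a1, a sulfotransferase of phenols and catecholamines, lay between 8.80 and 10.18 with control ASO and between 7.81 and 8.82 with PBS, a rise of 1.03 (SE 0.176, adjusted p = 0.000546). Angptl4, a secreted inhibitor of lipoprotein lipase, rose by 0.80 (SE 0.199, adjusted p = 0.0323), and Nfkbia, the inhibitor of NF-kappa B, by 0.48 (SE 0.118, adjusted p = 0.029). Under the slide block both missed the threshold (adjusted p = 0.0962 and 0.0678). Angptl4 also missed it without control ASO replicate 2, 3, 4 or 10 or PBS replicate 1, 4, 6 or 7, and Nfkbia without control ASO replicate 2, 4 or 6 or PBS replicate 1, 6 or 7. Tsc22d3, the glucocorticoid-induced leucine zipper, was named after its values were seen: its 2 probes rose by 0.81 (adjusted p = 0.00106) and 0.35 (adjusted p = 0.027). The other 9 members were not called and lay between -0.01 for Per1, a clock gene with a glucocorticoid response, and 0.60 for Cdkn1a, a cell cycle inhibitor.

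The promoter of Sgk1 is shown as the one called member of this list with the glucocorticoid response element in the window searched, 300 bases around each gene start, most of them before it (RefSeq, GRCm38.p6). The search was for GNACA and TGTNC with 3 bases of any kind between them, a pattern that reads alike on both strands. A match was found in 0.475% of 32851 promoters, and in those of 3 of the 15 list members that had one: Sgk1, Map3k6 and Mt1. The share is per annotated start, while a list member counted if any of its starts matched, so these are unlike units. Of 6 annotated starts of Sgk1, 1 held the match, 188 bases before the start. It is given here from 5′ to 3′ on the plus strand, chr10:21993640-21993939, with the match in capitals.
Sgk1: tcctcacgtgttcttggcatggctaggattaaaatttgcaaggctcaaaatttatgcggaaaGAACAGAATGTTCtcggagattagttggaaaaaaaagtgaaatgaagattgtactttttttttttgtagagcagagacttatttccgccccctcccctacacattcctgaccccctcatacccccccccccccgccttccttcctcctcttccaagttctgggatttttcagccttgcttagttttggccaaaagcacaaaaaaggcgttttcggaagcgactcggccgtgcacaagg
The other 5 called members with an annotated promoter had no match, which says only that these letters were not in those windows.

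**Figure D1:**
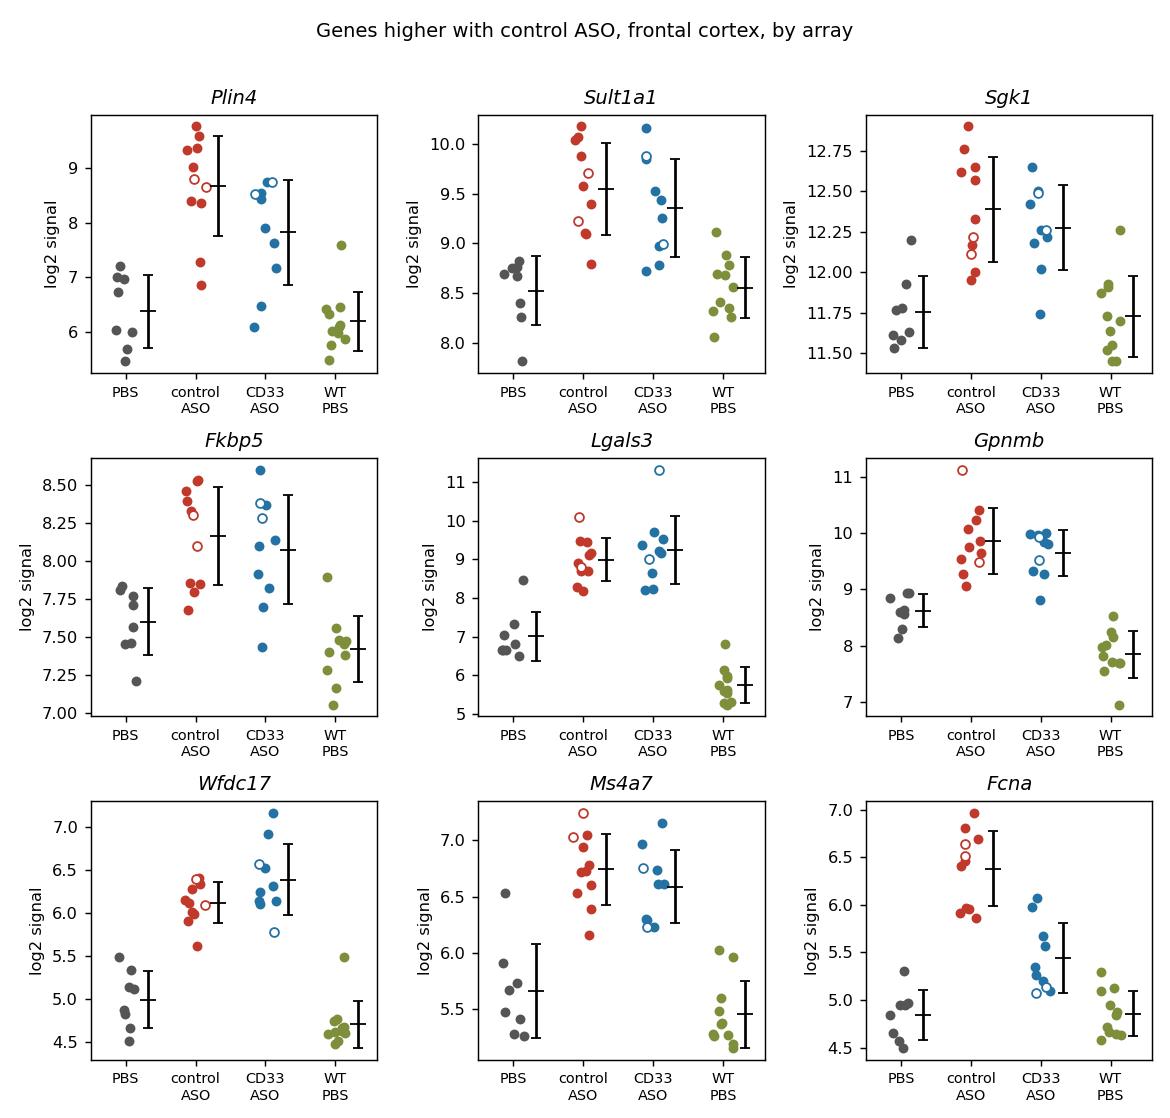
Log2 signal (vertical axes) of 9 genes that rose with control ASO, by array and by cortical group. Filled circles are arrays, open circles are arrays labelled APP/PS1 with Thy1 in the WT range, and bars give the mean ± SD of each group. All 11 control ASO arrays lie above all 8 PBS arrays for Gpnmb, Wfdc17 and Fcna.

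Lgals3, Gpnmb, Wfdc17 and Ms4a7 rose. They belong to a list of phagocyte responses to oligonucleotides, of whose 12 measured members 4 were called higher and 0 lower, against 0.363% and 0.562% of all probes, also without control ASO replicates 5 and 8 and with slide as a block, and the median of the list was 0.17. The list was written with earlier results of these data known, so its count is a description. Wfdc17 was detected on all 11 control ASO arrays, but on only 4 PBS arrays and 1 WT array. The control ASO arrays alone were enough to carry it past the detection filter. Its place among the measured members was therefore not independent of its rise. Lgals3 encodes galectin-3, a lectin that phagocytes make and that binds damaged lysosomes. It lay between 8.18 and 10.10 (median 8.90) on control ASO arrays and between 6.50 and 8.46 (median 6.73) on PBS arrays. The high PBS array was replicate 5, and the next PBS array was at 7.32. Lgals3 rose by 1.98 (SE 0.275, adjusted p = 1.38e-05), a factor of 3.94. On the WT arrays it lay between 5.24 and 6.80, overlapping the lower PBS arrays of APP/PS1 mice.

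Gpnmb, a transmembrane glycoprotein of phagocytes with lysosomal or lipid load, lay between 9.06 and 11.13 with control ASO and between 8.13 and 8.94 with PBS, so the groups did not overlap. Its rise was 1.24 (SE 0.189, adjusted p = 7.33e-05), while a second, dimmer probe of the gene gave 0.55 (adjusted p = 0.0619). Control ASO replicate 8, an array with Thy1 in the WT range, was the highest for both Lgals3 and Gpnmb. Wfdc17, a small secreted protein of macrophages, lay between 5.62 and 6.42 with control ASO and between 4.52 and 5.49 with PBS, where it was detected on 4 of 8 arrays. It rose by 1.13 (SE 0.143, adjusted p = 4.35e-06) but was not called without background correction (adjusted p = 0.36). Ms4a7, a membrane protein of macrophages, rose by 1.08 (SE 0.149, adjusted p = 1.31e-05), from 5.26 to 6.53 with PBS to 6.16 to 7.24 with control ASO. Its relative Ms4a6d, which lies in a locus tied to Alzheimer risk in people, rose by 0.74 (SE 0.186, adjusted p = 0.0362) and missed the threshold under the slide block (adjusted p = 0.0525). The uncalled members lay between -0.33 for Fabp5, a fatty acid carrier, and 0.30 for Plin2, another lipid droplet coat protein.

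Fcna, the lectin ficolin A of macrophages, had the smallest adjusted p of the comparison. It lay between 5.86 and 6.97 (median 6.46) on the control ASO arrays and between 4.50 and 5.31 (median 4.89) on the PBS arrays. All control ASO arrays were above all PBS arrays, and Fcna was detected on all 11 of the first and on 1 of the 8 others. It rose by 1.54 (SE 0.146, adjusted p = 1.61e-09). As most PBS arrays did not measure it above background, the size depends on the background correction. It was 0.82 with normexp at a larger offset and 4.50 without correction, where values that were not positive took the array's smallest positive value. Fcna was called in all 35 alternatives that tested it. Cbr2, a carbonyl reductase found in macrophages of the brain borders, rose by 0.67 (SE 0.131, adjusted p = 0.00272) with 10 of 11 arrays above the highest PBS array. These were the 2 of 8 measured border macrophage genes that were called, against 0.363% of all probes called higher and 0.562% lower. Fcna was also detected on just 1 of 11 WT arrays. The control ASO arrays alone were enough to carry it past the detection filter, so its place among the measured genes was not independent of its rise. The others lay between -0.33 for Maf, a transcription factor, and 0.26 for Stab1, a scavenger receptor, and included Mrc1 (0.17) and Pf4 (-0.08). The summed signal of the list ranged from 718 to 1511 with control ASO and from 560 to 4334 with PBS, and its upper end with PBS was set by Cd74, which reached 11.96 on PBS replicate 5. In bulk tissue, more cells of a type and more RNA per cell cannot be told apart.

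Few microglial genes outside these lists were called. Over all probes 0.363% were called higher and 0.562% lower, and without control ASO replicates 5 and 8 these shares were 0.528% and 0.446%. Of 16 measured genes of resting microglia, 1 was called: Crybb1, a crystallin that microglia make, rose by 0.56 (SE 0.129, adjusted p = 0.0176). Crybb1 missed the threshold without PBS replicate 7 or 8 and with the control ASO and PBS arrays fitted alone (highest adjusted p = 0.0783). The median of the list was 0.04, and 0.18 without control ASO replicates 5 and 8. Of 22 genes of microglia around plaques, 1 was called, Cadm1, a cell adhesion molecule that neurons and other brain cells also make, which fell by 0.27 (SE 0.054, adjusted p = 0.00464). With each array centred on its median in place of quantile normalization, Cadm1 was not called (adjusted p = 0.251). The median of the list of microglia around plaques was -0.12 over all arrays and 0.09 without control ASO replicates 5 and 8. Trem2, the lipid receptor of those microglia, differed by -0.17 (SE 0.252, adjusted p = 0.902) with all arrays and by 0.17 without replicates 5 and 8 (adjusted p = 0.582). Of 10 complement and Fc receptor genes 0 were called over all arrays and 3 were called higher without replicates 5 and 8, C1qc among them (0.39, adjusted p = 0.017, against 0.24 and adjusted p = 0.609 over all arrays). The median of that list was 0.23 over all arrays and 0.40 without them. Of 19 genes of the type I interferon response 0 were called, with a median of 0.00647. Ifitm3, an antiviral membrane protein of that list, differed by 0.28 (SE 0.156, adjusted p = 0.603). Gfap, the filament protein of reactive astrocytes, differed by -0.0673 (SE 0.185, adjusted p = 0.958), and of 18 reactive astrocyte genes only Fkbp5, counted above, was called.

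Some genes of oligodendrocytes fell. Of 13 measured oligodendrocyte and myelin genes 0 were called higher and 3 lower, against 0.562% of all probes, and the median was -0.15. Without control ASO replicates 5 and 8, and also with slide as a block, 2 were called lower. Opalin, a membrane protein of the myelin paranode, lay between 8.44 and 9.85 (median 9.08) with control ASO and between 9.74 and 10.26 (median 10.13) with PBS. Replicate 11 was the single control ASO array within the PBS range, and replicates 10 and 6 were the lowest. Opalin fell by 0.93 (SE 0.148, adjusted p = 0.000162). Cnp, an enzyme of the myelin sheath, lay between 10.63 and 11.15 with control ASO and between 11.01 and 11.64 with PBS, and fell by 0.45 (SE 0.0853, adjusted p = 0.00176), with -0.29 for its second probe (adjusted p = 0.0799). Mag, an adhesion protein between myelin and axon, fell by 0.32 (SE 0.0806, adjusted p = 0.0353) but not past the threshold without replicates 5 and 8 (adjusted p = 0.065) or under the slide block (adjusted p = 0.0888).

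Pllp, a proteolipid of myelin outside that list, lay between 7.99 and 8.75 with control ASO and between 8.69 and 9.10 with PBS. The fall of Pllp was -0.64 (SE 0.086, adjusted p = 1.16e-05), and 10 of 11 control ASO arrays were below every PBS array. Enpp6, a phosphodiesterase of oligodendrocytes that are starting to make myelin, fell by 0.77 (SE 0.143, adjusted p = 0.00137). It was the one called of 9 measured genes of precursors and that stage, against 0.562% of all probes called lower. Mbp, myelin basic protein, differed by -0.15 (adjusted p = 0.151) on its probe of highest mean, and Mobp, another basic protein of myelin, by 0.03 (adjusted p = 0.969). Ninj2, an adhesion protein, fell by 0.68 (SE 0.121, adjusted p = 0.000973), with 8 of 11 arrays below every PBS array.

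Of 15 measured genes of cholesterol and fatty acid synthesis 0 were called higher and 3 lower, against 0.363% and 0.562% of all probes, and the median was -0.24. Without control ASO replicates 5 and 8, 2 were called lower, and with slide as a block 0. The called genes were Mvd, mevalonate diphosphate decarboxylase (-0.48, SE 0.123, adjusted p = 0.0396), Dhcr7, which makes cholesterol in the last step of one branch (-0.34, SE 0.0874, adjusted p = 0.0409), and Hmgcs1, which makes the substrate of the rate-limiting step (-0.25, SE 0.0641, adjusted p = 0.0409). Their control ASO arrays lay between 7.24 and 8.75, between 6.44 and 6.96 and between 13.08 and 13.85, and their PBS arrays between 8.16 and 8.87, between 6.86 and 7.45 and between 13.66 and 13.95. The adjusted p under the slide block was 0.0951, 0.0616 and 0.115. The promoter of Hmgcs1 held the sterol response element (TCACNCCAC, searched on both strands). That match was found in 1.24% of all promoters, counted per start, and in those of 1 of 11 list members that had one, counted per gene. The sequence is given because it is the called synthesis gene with a match, from 5′ to 3′ on the plus strand, chr13:119690101-119690400, with the match in capitals.
Hmgcs1: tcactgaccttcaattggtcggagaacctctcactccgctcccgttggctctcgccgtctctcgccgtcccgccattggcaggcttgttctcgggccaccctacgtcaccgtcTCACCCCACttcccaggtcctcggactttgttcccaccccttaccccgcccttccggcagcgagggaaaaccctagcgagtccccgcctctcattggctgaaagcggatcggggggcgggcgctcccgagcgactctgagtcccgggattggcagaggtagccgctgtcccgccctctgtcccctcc

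**Figure D2:**
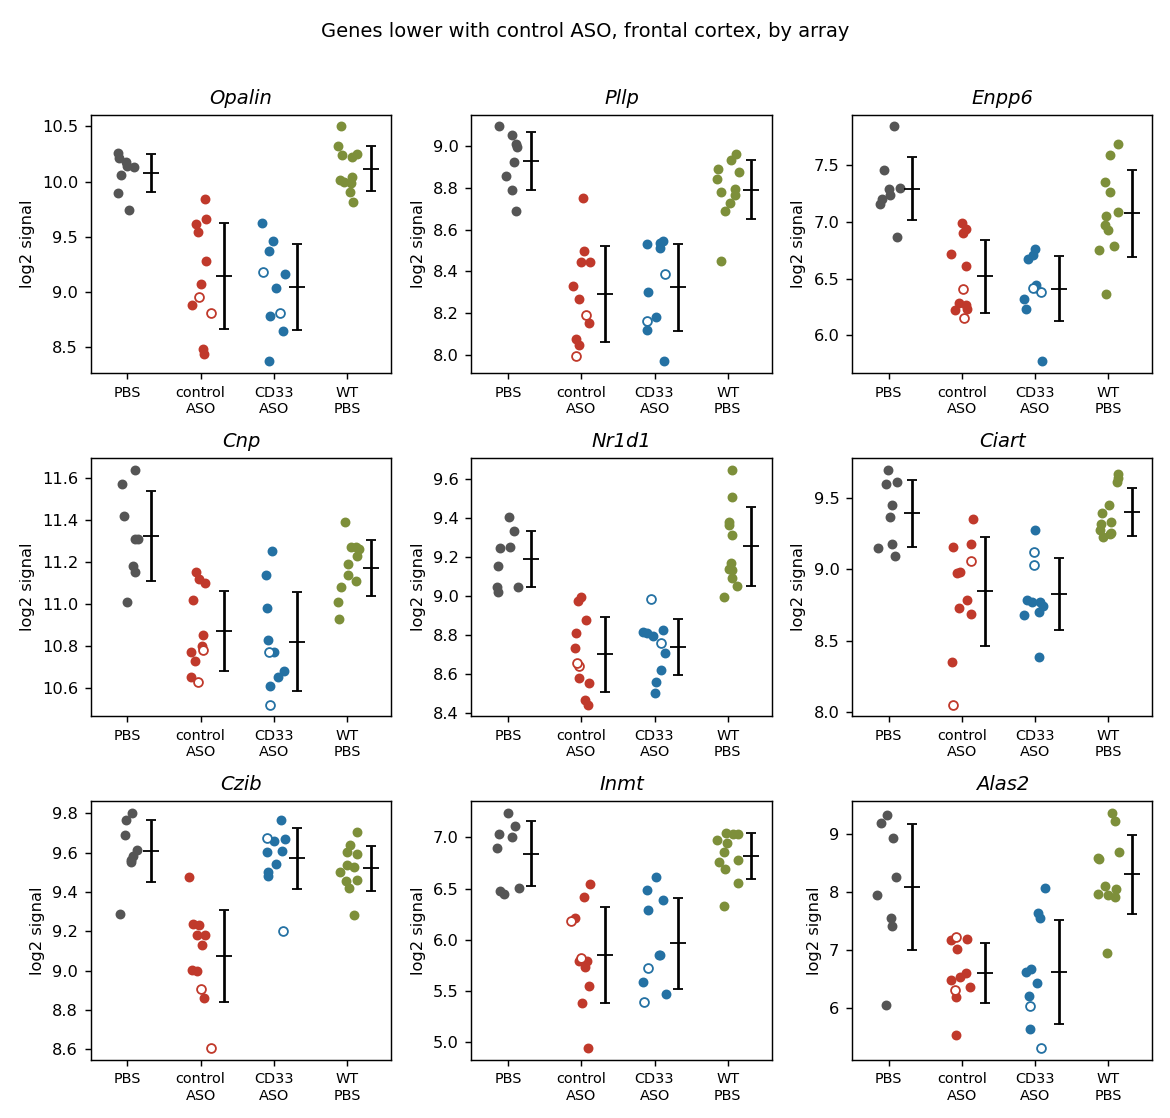
Log2 signal (vertical axes) of 9 genes that fell with control ASO, by array and by cortical group. Filled circles are arrays, open circles are arrays labelled APP/PS1 with Thy1 in the WT range, and bars give the mean ± SD of each group. Czib is its probe of highest mean. All 11 control ASO arrays lie below all 8 PBS arrays for Nr1d1.

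Clock genes were lower in part. A list of 14 measured clock genes was added after the values were seen: 0 were called higher and 3 lower, against 0.363% and 0.562% of all probes, and its median was 0.02. The same 3 genes were called without control ASO replicates 5 and 8, and 2 with slide as a block. Nr1d1, the nuclear receptor REV-ERB alpha, lay between 8.44 and 8.99 (median 8.66) with control ASO and between 9.02 and 9.41 (median 9.20) with PBS. No control ASO array reached the lowest PBS array, and Nr1d1 fell by 0.49 (SE 0.081, adjusted p = 0.000372), with a second probe at -0.41. Ciart, a repressor of the clock, lay between 8.05 and 9.35 with control ASO and between 9.10 and 9.70 with PBS and fell by 0.55 (SE 0.119, adjusted p = 0.00962). Dbp, a transcription factor that the clock drives, fell by 0.33 (SE 0.0848, adjusted p = 0.0409), but not past the threshold under the slide block (adjusted p = 0.0803). Arntl, the activator on the opposite arm of the clock, differed by 0.30 (adjusted p = 0.403) and Per2, a repressor, by 0.28 (adjusted p = 0.231). The hour at which each animal was killed was not used here.

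Ciart carries the E-box that clock activators bind, searched as CACGTG, which reads alike on both strands. This motif was in 7.15% of all promoters, counted per start. Counted per gene, it was in those of 3 of 12 clock genes that had one, which were Ciart, Per1 and Tef. The promoter of Ciart is shown for its 3 matches, from 5′ to 3′ on the minus strand, chr3:95882179-95882478, with the matches in capitals. The first match begins 116 bases before the start.
Ciart: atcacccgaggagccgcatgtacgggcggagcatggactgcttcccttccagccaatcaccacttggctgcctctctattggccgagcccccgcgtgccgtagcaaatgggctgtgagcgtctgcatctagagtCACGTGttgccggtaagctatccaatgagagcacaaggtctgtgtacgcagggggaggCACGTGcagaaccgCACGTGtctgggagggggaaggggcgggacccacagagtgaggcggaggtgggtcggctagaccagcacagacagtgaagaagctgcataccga
Nr1d1 and Dbp had no match in their windows.

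The remaining large falls belonged to several kinds of gene. Alas2, the first enzyme of haem synthesis in red blood cells, had the largest fall. It lay between 5.54 and 7.22 (median 6.53) with control ASO and between 6.06 and 9.32 (median 8.09) with PBS, and fell by 1.48 (SE 0.336, adjusted p = 0.0142). PBS replicate 7, the animal collected after 14 days, was the lowest PBS array, and Alas2 missed the threshold without PBS replicate 2 or 6, with a highest adjusted p of 0.0539. It was the one called of 4 measured red cell genes, against 0.562% of all probes called lower. The differences of these genes were all negative, from -1.48 to -0.61. Hbb-bt, a beta globin, differed by -1.25 (adjusted p = 0.0601, and 0.0441 without control ASO replicates 5 and 8). The summed signal of these 4 genes ranged from 6775 to 19670 with control ASO and from 10490 to 28190 with PBS. The part of blood in the other results was not tested. Inmt, an N-methyltransferase of indole amines, fell by 0.99 (SE 0.167, adjusted p = 0.000457), and 10 of 11 arrays lay below every PBS array.

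Czib, which encodes a zinc-binding protein, fell on both of its probes, by 0.53 (SE 0.0785, adjusted p = 4.05e-05) and 0.68 (SE 0.108, adjusted p = 0.000162). The first lay between 8.61 and 9.48 with control ASO and between 9.29 and 9.80 with PBS. On each probe 10 of 11 control ASO arrays were below every PBS array. Emc1, a subunit of the complex that inserts proteins into the endoplasmic reticulum membrane, fell by 0.77 (SE 0.136, adjusted p = 0.000933). Aox3, an aldehyde oxidase, fell by 0.67 (SE 0.138, adjusted p = 0.00598), and Ccno, a cyclin of multiciliated cells, by 0.64 (SE 0.141, adjusted p = 0.00982). Plppr1, a membrane protein of growing neurites (-0.65, SE 0.151, adjusted p = 0.0179), was called on 1 of 4 probes, and not without replicates 5 and 8 (adjusted p = 0.0626). Btrc, the substrate receptor of a ubiquitin ligase (-0.59, SE 0.124, adjusted p = 0.00738), was called on 1 of 3 probes, and 1700016K19Rik (-0.57, SE 0.109, adjusted p = 0.00219) on 1 of 2. For both, another probe gave a difference above 0, of 0.02 and 0.09. Sgk2, a kinase related to Sgk1 (-0.53, SE 0.122, adjusted p = 0.017), was detected on 2 of 11 control ASO arrays and all PBS arrays. Cirbp, a cold-induced RNA-binding protein, fell by 0.47 (SE 0.12, adjusted p = 0.0402), and missed the threshold under the slide block (adjusted p = 0.0841). Gpc5, a heparan sulfate proteoglycan named after its values were seen, fell on all 3 of its probes, by 0.46 to 0.67.

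The remaining rises belonged to no one list. Etnppl, an astrocyte enzyme that degrades phosphoethanolamine, lay between 6.65 and 8.71 (median 8.38) with control ASO and between 6.47 and 7.48 (median 6.74) with PBS. It rose by 1.07 (SE 0.206, adjusted p = 0.00219), and its second probe by 0.84. Tmem82, a membrane protein, lay between 5.99 and 7.06 with control ASO and between 5.01 and 5.69 with PBS, with no overlap, and rose by 1.00 (SE 0.136, adjusted p = 1.16e-05). Its neighbour on chromosome 4, Slc25a34, a mitochondrial carrier (141618819 to 141623891, next to Tmem82 at 141614233 to 141618633 in GRCm38.p6), rose by 0.71 (SE 0.129, adjusted p = 0.00106). Cbln4, a secreted organiser of synapses, rose by 0.68 (SE 0.148, adjusted p = 0.00939). Control ASO replicate 8 was its high array, at 10.09 against at most 8.91 on the others. Spink8, a protease inhibitor, rose by 0.73 (SE 0.179, adjusted p = 0.027), and Fgfbp1, a carrier of fibroblast growth factors, by 0.72 (SE 0.157, adjusted p = 0.00908). Ly6c1, a surface protein of endothelium (0.39, SE 0.0959, adjusted p = 0.0288), was the one called of 13 vascular genes, and under the slide block (adjusted p = 0.0717) 0 were. Atp6v0e (0.22, SE 0.0572, adjusted p = 0.0391) was the one called of 15 subunits of the proton pump of lysosomes. Beside both counts over all arrays, 0.363% of all probes were called higher. Smox, spermine oxidase, and Apod, a lipid carrier, were named after their values were seen. Smox rose on 4 of 5 probes by 0.40 to 0.55, and Apod rose by 0.57 (adjusted p = 7.33e-05).

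Of 41 lists with measured members, a list of Fcna and Czib, written for their earlier values in these data, held 2 called genes and is left out here. Of the other 40 lists, 17 held a called gene over all arrays and 23 held none. Without control ASO replicates 5 and 8, 3 of 10 complement and Fc receptor genes were called higher, against 0.528% of all probes. So were 2 of 21 lysosomal hydrolases and membrane proteins. Both of these lists are among the 23. Over all arrays, the medians of the 23 ran from -0.56 for striatal neurons to 0.23 for complement and Fc receptors. Neuronal and synaptic genes had a median of -0.00402 over 16 genes, and Syp, a synaptic vesicle protein, differed by 0.00927 (SE 0.0367, adjusted p = 0.973). Immediate early genes, which neuronal activity induces, had a median of 0.21, but -0.04 without control ASO replicates 5 and 8. Egr1, one of them, reached 13.27 and 13.93 on these arrays and at most 12.84 on the other control ASO arrays. All 9 measured genes of striatal neurons had negative differences and 0 were called. Rgs9, a striatal regulator of G-protein signalling, lay between 10.34 and 11.90 with control ASO and between 10.64 and 12.13 with PBS (difference -0.56, SE 0.26, adjusted p = 0.442). The summed signal of the striatal genes ranged from 7181 to 16610 with control ASO and from 8062 to 20470 with PBS. The frontal tissue was taken with a single cut across the hemisphere, per the labels, and the part of striatal tissue in the falls of oligodendrocyte and other genes was not tested.

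**Figure D3:**
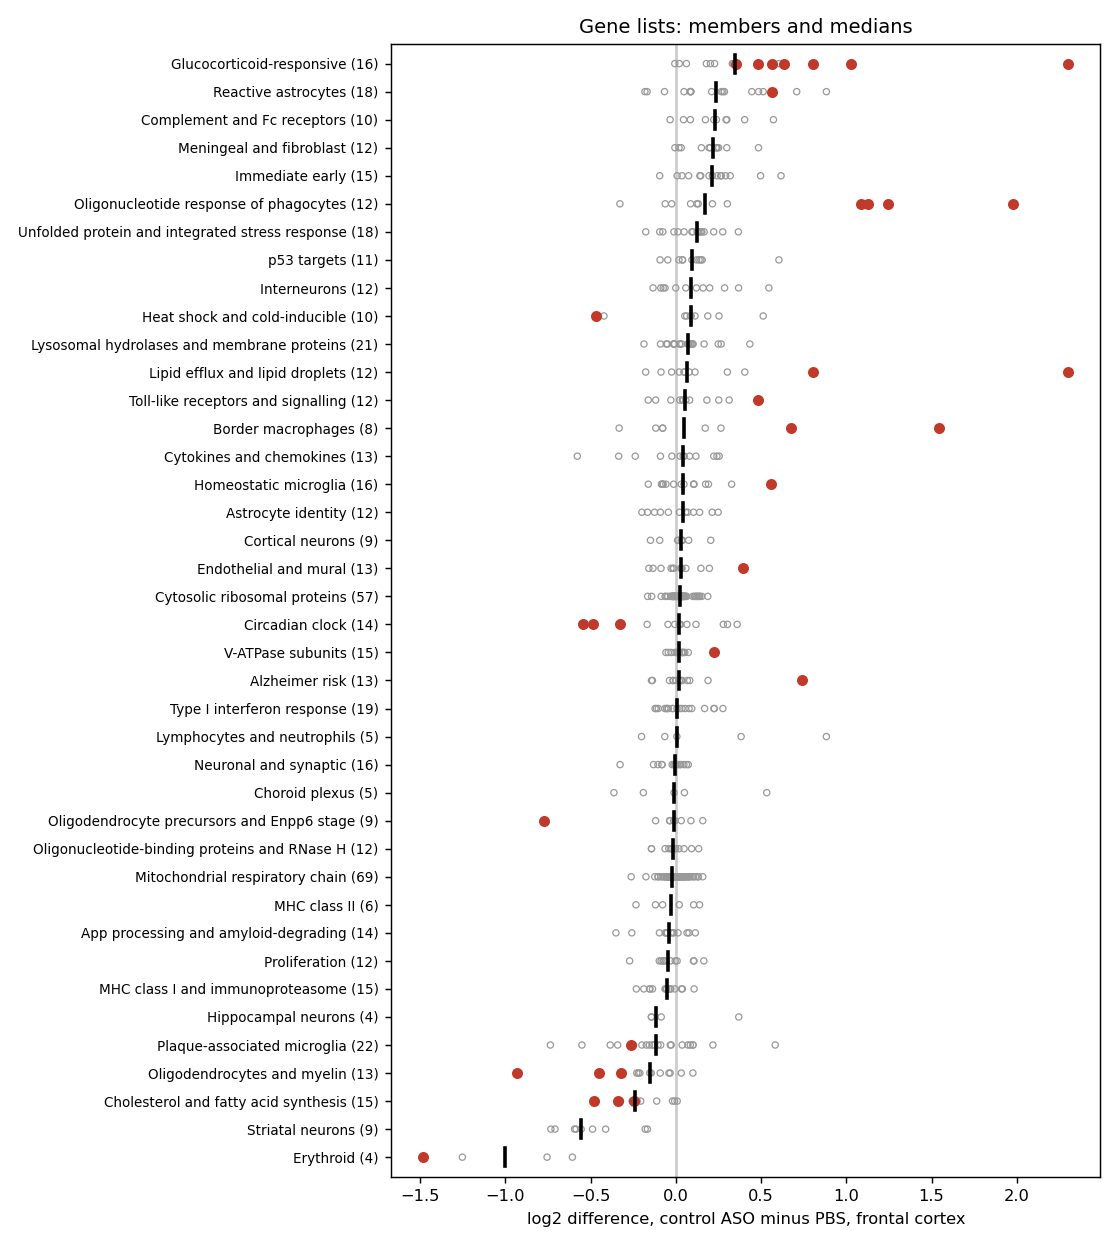
Log2 differences, control ASO minus PBS (horizontal axis), of the members of each gene list with at least 4 measured genes, with the number measured in parentheses. Filled circles are called genes, open circles are genes that were not called, and black bars are medians. Glucocorticoid-responsive genes have the highest median (0.34) and red cell genes, with Alas2 at -1.48, the lowest.

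Plin4 varied among the 11 control ASO arrays (SD 0.924) and also among the 8 PBS arrays (SD 0.671). On the control ASO arrays it was set against 8 other genes chosen after the values were seen. The same relations were not computed on PBS arrays, so whether they depend on the oligonucleotide was not tested. Plin4 varied with Sgk1 (Pearson r 0.893, permutation p = 6e-05, adjusted 0.00024; Spearman rho 0.927, permutation p = 0.0001, adjusted 0.0004). It also varied with Fkbp5 (r 0.897, permutation p = 4e-05, adjusted 0.00024; rho 0.945, permutation p = 4e-05, adjusted 0.00032). Both relations kept an r of at least 0.906 without the 2 arrays farthest from the median of Plin4, and of at least 0.911 without the arrays with Thy1 in the WT range. Etnppl gave an r of 0.92 (permutation p = 0.00044, adjusted 0.00117) and a rho of 0.818 (permutation p = 0.00322, adjusted 0.00859), with 0.749 without the 2 farthest arrays.

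Opalin ran the other way, with an r of -0.748 (permutation p = 0.00656, adjusted 0.0131) and a rho of -0.727 (permutation p = 0.0148, adjusted 0.0295), and so did Nr1d1, with an r of -0.723 (permutation p = 0.0158, adjusted 0.0253) and a rho of -0.691 (permutation p = 0.0232, adjusted 0.0309). Without the 2 farthest arrays their r was -0.569 and -0.558, so a part of each relation rested on those arrays. Lgals3 was not related to Plin4 beyond the threshold (r 0.395, permutation p = 0.221; rho 0.427, permutation p = 0.192), nor was Pllp (r -0.453, permutation p = 0.184; rho -0.41, permutation p = 0.21). Fcna passed by rank alone (r 0.541, permutation p = 0.0908, adjusted 0.121; rho 0.709, permutation p = 0.0189, adjusted 0.0302). All p-values are two-sided with 100000 resamples and adjusted over the 8 pairs. No slide held more than 4 control ASO arrays, too few for values of single slides. With slide as a block, an alternative chosen after seeing the data, 9 arrays on 3 slides could be used, and partners were permuted within slides (exact, two-sided, 288 arrangements). The slide-adjusted r was 0.892 for Sgk1 (exact p = 0.0104, adjusted 0.0648), 0.873 for Fkbp5 (exact p = 0.0243, adjusted 0.0648) and -0.568 for Nr1d1 (exact p = 0.0208, adjusted 0.0648). It was 0.911 for Etnppl (exact p = 0.0972, adjusted 0.176) and -0.80 for Opalin (exact p = 0.125, adjusted 0.176). None of the 8 relations passed the threshold after adjustment within slides, where the smallest p possible was 0.00347.

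The hippocampus of the same animals gave the same comparison, with 11 control ASO and 8 PBS arrays in a fit of both tissues with animal as a random block. There 1506 of 15290 probes (9.85%) were called, 4.92% higher and 4.93% lower. The cortical share of 0.926% came from the fit of the cortical arrays alone over 14581 probes, so these shares are unlike in fit and filter. No alternatives were run for the hippocampal count. The tissues share animals, so their values are given side by side. Plin4 rose by 2.48 (SE 0.346) in the hippocampus and 2.30 in the cortex, Lgals3 by 1.41 (SE 0.27) and 1.98, Fcna by 1.80 (SE 0.141) and 1.54, and Gpnmb by 1.21 (SE 0.206) and 1.24. Opalin fell by 0.96 (SE 0.147) and 0.93, Pllp by 0.67 (SE 0.0919) and 0.64, and Nr1d1 by 0.38 (SE 0.0864) and 0.49. Genes of cholesterol and fatty acid synthesis had a median of -0.0323 in the hippocampus and -0.24 in the cortex, and Mvd a difference of 0.0244 (adjusted p = 0.913) in the hippocampus.

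The difference between tissues itself passed the threshold for 31 of 15290 probes (0.203%), with 19 differences above 0 (0.124%) and 12 below (0.0785%), and 4 of them were called in the cortex. They were the second Czib probe (-0.68 in the cortex and -1.46 in the hippocampus, difference 0.78, adjusted p = 0.0336), Fgfbp1 (0.72 and -0.18, difference 0.90, adjusted p = 0.0475), Chaf1a, a chromatin assembly factor (-0.44 and 0.12, difference -0.56, adjusted p = 0.0492), and Slc39a11, a zinc transporter (-0.43 and -0.02, difference -0.41, adjusted p = 0.0336). None of the 31 passed without the animal block (lowest adjusted p = 0.0698), with each array centred on its median in place of quantile normalization (0.199) or without the animals whose cortical Thy1 lay in the WT range (0.0712).

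**Figure D4:**
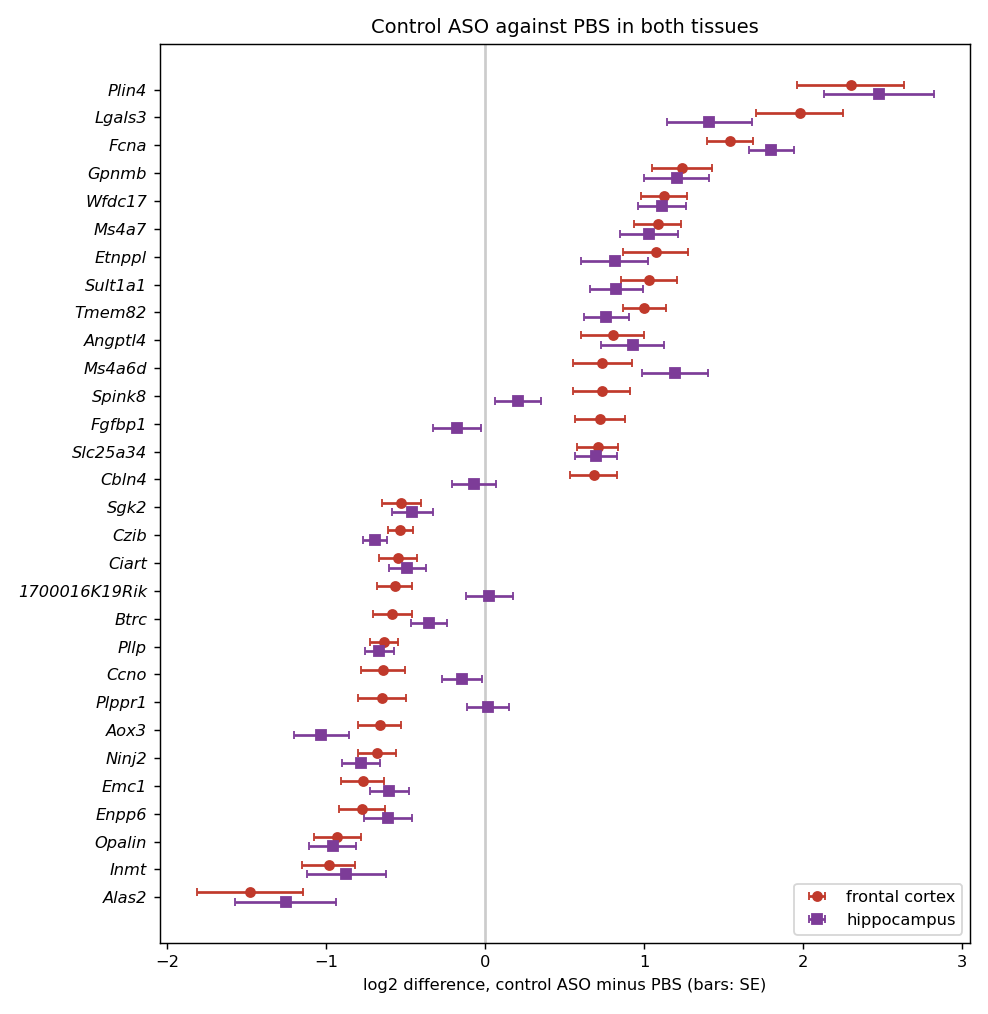
Log2 differences, control ASO minus PBS (horizontal axis, bars give the SE), of the 15 largest rises and 15 largest falls in the frontal cortex (circles, cortical fit) and the hippocampus of the same animals (squares, fit of both tissues). Plin4 stands at 2.30 and 2.48, and Fgfbp1 at 0.72 and -0.18.

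CD33 ASO and control ASO were both compared with the same 8 PBS arrays, so their values against PBS are not independent and are given side by side. Against PBS, 217 probes (1.49%) were called with CD33 ASO, 0.686% higher and 0.802% lower. Without the arrays whose Thy1 lay in the WT range 320 were called, and the share that was higher moved from 46.1% to 54.7%. Plin4 rose by 1.45 (SE 0.345, adjusted p = 0.0174) with CD33 ASO and by 2.30 with control ASO, Lgals3 by 2.24 (SE 0.281, adjusted p = 1.06e-06) and 1.98, and Wfdc17 by 1.40 (SE 0.146, adjusted p = 1.16e-08) and 1.13. Opalin fell by 1.03 (SE 0.151, adjusted p = 3.02e-05) with CD33 ASO and by 0.93 with control ASO, and Nr1d1 by 0.45 (SE 0.0827, adjusted p = 0.00103) and 0.49. Genes of the type I interferon response had a median of 0.54 with CD33 ASO, where 3 of 19 were called higher, and of 0.00647 with control ASO. The control ASO median was 0.0958 without control ASO replicates 5 and 8, and 0.34 in the hippocampus. Between the oligonucleotides, Ifitm3 and Lgals3bp, the brightest of these genes, differed by 0.39 (SE 0.147, adjusted p = 0.348) and 0.41 (SE 0.186, adjusted p = 0.479).

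The oligonucleotides were then compared directly, and 47 of 14581 probes (0.322%) differed, 0.185% higher and 0.137% lower with CD33 ASO. Without the arrays whose Thy1 lay in the WT range 28 differed. Of the probes called in control ASO against PBS, which used the same control ASO arrays, 7 differed between the oligonucleotides. Fcna lay between 5.86 and 6.97 with control ASO and between 5.07 and 6.08 with CD33 ASO, and was lower with CD33 ASO by 0.94 (SE 0.137, adjusted p = 6.27e-05). Its rise over PBS with CD33 ASO was 0.60 (SE 0.149, adjusted p = 0.0249). Czib was higher with CD33 ASO than with control ASO by 0.50 (SE 0.0738, adjusted p = 7.76e-05) and 0.57 (SE 0.101, adjusted p = 0.00132) on its 2 probes, and differed from PBS by -0.0358 and -0.10 with CD33 ASO (adjusted p = 0.92 and 0.785). Cadm1 was higher by 0.24 (SE 0.0507, adjusted p = 0.0138), and Dctn4, a dynactin subunit, by 0.27 (SE 0.0463, adjusted p = 0.00093). The other 2 probes had no symbol. The difference in Plin4 between the oligonucleotides had an adjusted p of 0.343 and that in Lgals3 of 0.809, which does not show that they act alike.

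**Figure D5:**
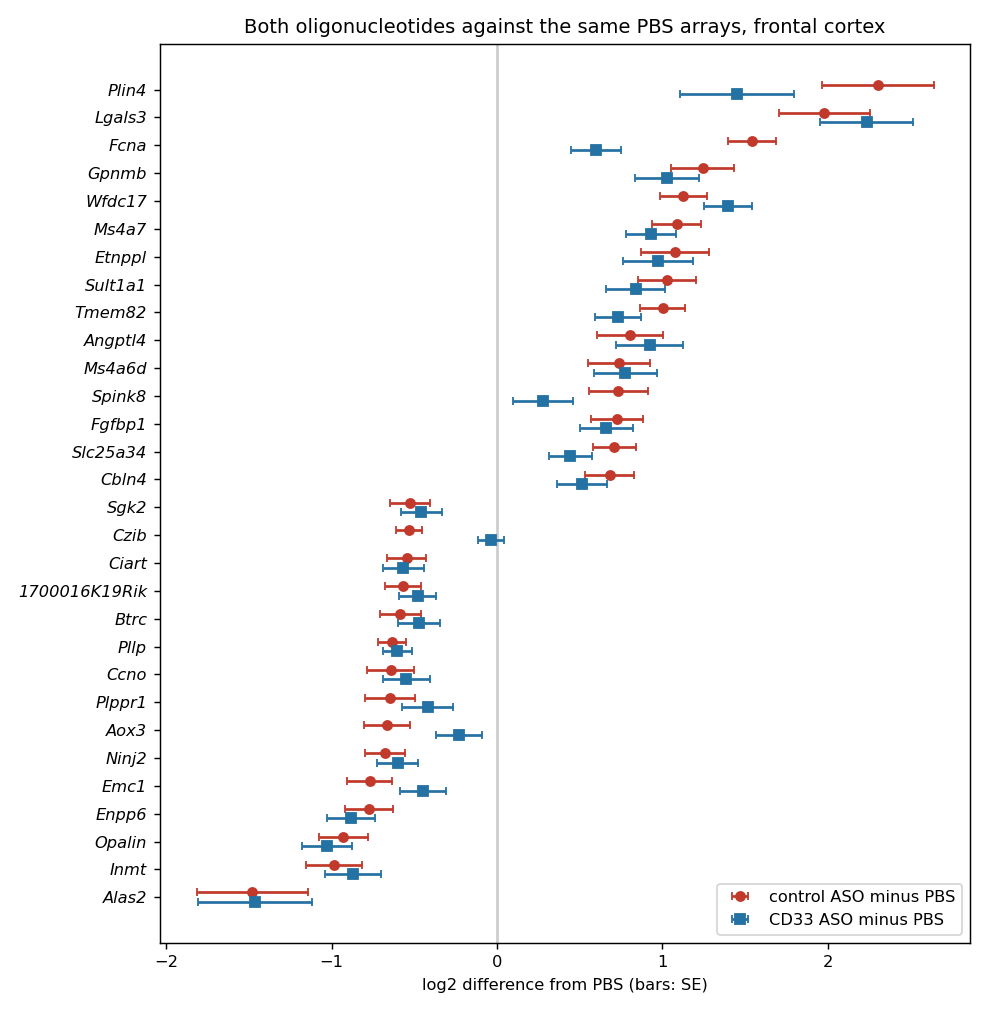
Log2 differences from PBS (horizontal axis, bars give the SE) of the 15 largest rises and 15 largest falls with control ASO (circles) and of the same genes with CD33 ASO (squares), both against the same 8 PBS arrays of the frontal cortex. Fcna stands at 1.54 and 0.60, and Czib (probe of highest mean) at -0.53 and -0.0358.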

How the data were processed

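Total RNA of frontal cortex and hippocampus was hybridised to Illumina mouse bead arrays. The authors deposited a table of probe intensity values without normalization, with a detection p-value beside each, per the file headers, and a normalized log2 table, whose scale and centring the sources used here do not state. BeadStudio, GenomeStudio and Partek are named in the submitters' processing notes, without versions or roles. Per the labels, each array was put in a group by its title.

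The intensities of all 79 arrays were background-corrected with the detection p-values, quantile-normalized and put on the log2 scale with neqc (offset 16) in limma 3.58.1 (R 4.3.3, statmod 1.5.0), so a dim probe's fold change is understated. Probes were kept with a detection p under 0.05 on 8 or more cortical arrays. The 4 cortical groups were fitted with lmFit and eBayes (trend), with Benjamini-Hochberg adjustment over all 14581 probes and a threshold of 0.05. The tissue difference was fitted over all arrays with animal as a random block (correlation 0.0801). Exact permutation and correlation tests used scipy 1.17.1. The fit was checked on simulated data. Of 25697 probes, 17800 had 1 gene symbol in the platform annotation. Promoters came from RefSeq tables for GRCm38.p6. Number of arrays limits the precision.

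Named genes were the 15 largest called rises and falls and up to 4 called members of each list (the 2 brightest where none was called). The 5 largest tissue differences each way and a set of checks were added. Each gene was named by 1 probe, the one with the highest mean. For the largest rises and falls that probe was taken among the called probes of the gene, so the choice depended on the call. For the tissue differences it was the called probe with the largest difference. Other genes named, and the clock list, were chosen after their values were seen. The members and lists were chosen with earlier results of these data known. Arrays of the same replicate number in the control ASO and PBS groups did not deviate together: over 8 pairs the correlations ran from -0.111 to 0.204, and 1 was over 0.1. Alternatives changed the background correction, normalization, filter, blocks, arrays and variance model.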

Additional observations from a re-analysis of the deposited data

Results flagged for a closer look

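Of the probes of named genes tested, 11 (10.3%) had a PBS array that stood apart from the other 7 by Dixon's test, and chance flags about 1 in 20. Of these, 6 were PBS replicate 4: 1700016K19Rik was high at 7.31 and Pld3 at 12.34, while Ccno was low at 6.48, Clic6 at 5.85, Rgs9 at 10.64 and Slc32a1 at 11.83. PBS replicate 5 was high for Lgals3, at 8.46, and for Cd74, at 11.96. Angptl4 was low on PBS replicate 7, at 6.62, Btrc on PBS replicate 3, at 6.30, and Itm2b on PBS replicate 2, at 13.66.

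The difference between control ASO and PBS differed between cortex and hippocampus past the threshold for these genes (limma, cortex minus hippocampus on the log2 scale). It was 1.12 for Cort, a neuropeptide of interneurons, 0.90 for Fgfbp1, 0.83 for Marcksl1, 0.82 for Tmem184c and 0.78 for Czib. It was -0.56 for Chaf1a, -0.52 for Cpne9, -0.50 for Trim45, -0.46 for Heatr1, -0.43 for Tbc1d25 and -0.41 for Slc39a11. None passed without the animal block.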

How the results depend on the processing

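The probes called over all arrays had the same sign under all alternatives run, of which the stricter filter measured 132. The number called was 57 with each array centred on its median and 83 with the control ASO and PBS arrays fitted alone (44 higher, 39 lower), where fewer arrays set the spread. With single control ASO or PBS arrays left out in turn, the number lay between 91, without control ASO replicate 2, and 172, without control ASO replicate 7. With the replicate block 43 were higher and 82 lower, and Plin4 rose by 2.22. The replicate numbers share only a number and pair no animals. The tissue difference had 0 calls under median centring (1872 at an unadjusted p under 0.05), 0 without the animals of low Thy1 (1807) and 0 without the animal block (2066), all with limma. CD33 ASO against control ASO gave 28 without the arrays of low Thy1. The Cd33 difference was then 0.272. The causes were not tested. Wfdc17 and Sgk2 were not called without background correction, where values that were not positive took the array's smallest positive value. Dim probes such as Fcna and Wfdc17, detected on 1 and 4 PBS arrays, have fold changes that depend on that correction.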

Other observations

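Genes of reactive astrocytes had differences that were mostly above 0. Of 18 measured members 15 were positive, the median was 0.24, and 1 was called. Without control ASO replicates 5 and 8 the median was 0.16. Over all 14581 probes 7249 were positive and 0.926% were called. Lcn2, a secreted carrier of iron-binding molecules, lay between 5.10 and 7.01 with control ASO and between 4.50 and 7.08 with PBS (0.88, SE 0.376, adjusted p = 0.36). Aldoc, an astrocyte aldolase, differed by 0.21 (SE 0.0638, adjusted p = 0.106). Genes of the meninges and fibroblasts had a median of 0.22 over 12 members, with 0 called.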
